A study of Caenorhabditis elegans with 4 samples.

Results

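The 9 genes described here encode the core of the machinery that dosage compensation in Caenorhabditis elegans is built on. They are 4 subunits of condensin DC (mix-1, capg-1, dpy-27 and dpy-28), the SDC proteins that bring it to the X chromosome (sdc-1, sdc-2 and sdc-3), and its partners dpy-30 and dpy-21. They were chosen by name, as sequence names in the gene column, and all 9 were found in both deposited tables, among 17491 gene names in either. RNA was sequenced from whole L2/L3 larvae that had grown for 24 h at 22 °C from starved L1 larvae and then spent 2 h on 1 mM auxin. Strain AM11 carried a degron and GFP on TOP-2 and on DPY-27, and strain AM12 carried them on TOP-1 and on DPY-27. Each strain gave 2 libraries. The authors compared each with strain CA1200, also after 2 h on auxin. CA1200 is known as a strain that makes the plant F-box protein TIR1 from the eft-3 promoter in somatic cells, and the labels do not say which TIR1 transgene AM11 and AM12 carry. DPY-27 carried the degron in both depleted strains, so TOP-2 depletion and TOP-1 depletion below each stand for loss of that topoisomerase together with DPY-27. The loss of DPY-27, the loss of the topoisomerase and the strain background therefore cannot be told apart in a comparison with CA1200.

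Condensins are ring-shaped complexes of 2 SMC ATPases, a kleisin and HEAT-repeat proteins that move along DNA and fold it into loops. In hermaphrodites condensin DC sits on both X chromosomes and reduces their transcription, and it differs from the mitotic condensin I in a single SMC subunit, DPY-27. MIX-1, DPY-28, CAPG-1 and the kleisin DPY-26 serve condensin I as well, and MIX-1 also serves condensin II. SDC-2 is made in hermaphrodites and starts the loading on the X, together with the zinc finger proteins SDC-1 and SDC-3. The SDC proteins also repress the male-determining gene her-1. DPY-30 is also a subunit of histone H3 methyltransferase complexes, and DPY-21 is a histone H4 demethylase of the JmjC family.

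The tables hold a mean normalized count per gene over the libraries of a comparison, a log2 fold change over CA1200 with its standard error (SE), and a p-value. They hold no value per library, so the spread between libraries is seen only through the SE, and how many libraries share a direction cannot be told. The labels do not say whether replicates came from separate cultures, so the p-values measure only the spread between these libraries. At an authors' adjusted p under 0.05, 21.5% of 14958 genes tested were called after TOP-2 depletion, 14.1% higher and 7.47% lower. With TOP-1 depleted 29.9% of 14854 genes were called, 17.1% higher and 12.8% lower. X genes had median log2 fold changes of 0.54 and 0.68 in these comparisons, and autosomal genes of -0.13 and -0.14. Vitellogenin genes, which mark adults, were nearly silent, with vit-6 the highest of 4 at a mean of 20.8 and 24.2 normalized counts in the authors' deposited tables. In whole animals, fewer cells of a type and less RNA per cell cannot be told apart.

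The level of each gene in each group was worked out from the authors' deposited tables, since a mean over libraries and a fold change together fix the mean of both arms once their sizes are known. With equal arms the CA1200 level that each table implies was nearly the same for 10551 genes, its log2 ratio between tables having an interquartile range of 0.00508. The range was 0.0539 when 2 in 5 libraries were taken as depleted and 0.0918 with 1 in 3, and equal arms were used. Levels below are group means of normalized counts, with no value per library behind them.

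dpy-30 was by far the most abundant of the 9 transcripts, and the SDC genes were the least abundant. Per kilobase (kb) of exon, dpy-30 stood in CA1200 at 2521 normalized counts, above 93.8% of protein-coding genes with means of at least 10. It was followed by dpy-21 at 408, mix-1 at 275, dpy-27 at 248, dpy-28 at 207 and capg-1 at 193. The condensin subunits thus lay close together, near the middle of these genes, between the percentiles 51.6 and 61.5. Percentiles here are among 12708 protein-coding genes with a mean of at least 10 in both comparisons, not among all genes. sdc-2, sdc-1 and sdc-3 stood at 69.7, 67.7 and 63.5 normalized counts per kb of exon, between the percentiles 27.5 and 29.1. Neighbours in this order differed beyond the 95% interval at 2 places, between dpy-30 and dpy-21 (6.18-fold) and between capg-1 and sdc-2 (2.77-fold). This interval holds only the spread between libraries, not the error of comparing counts per kb between different genes. The order within the condensin subunits and within the SDC genes lies inside the error. After TOP-2 depletion the step from capg-1 to sdc-3, 1.93-fold, was still beyond the 95% interval. In TOP-1 depletion only 1 step between neighbours was beyond it, from dpy-30 to mix-1, 8.56-fold. sdc-1 and sdc-3, at 90.5 and 79.8 normalized counts per kb, still lay below mix-1 (252), capg-1 (180) and dpy-27 (170) in TOP-1 depletion. There sdc-2, at 144 normalized counts per kb, stood above dpy-28, at 95.9, a difference that lies inside the error.

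**Figure D1:**
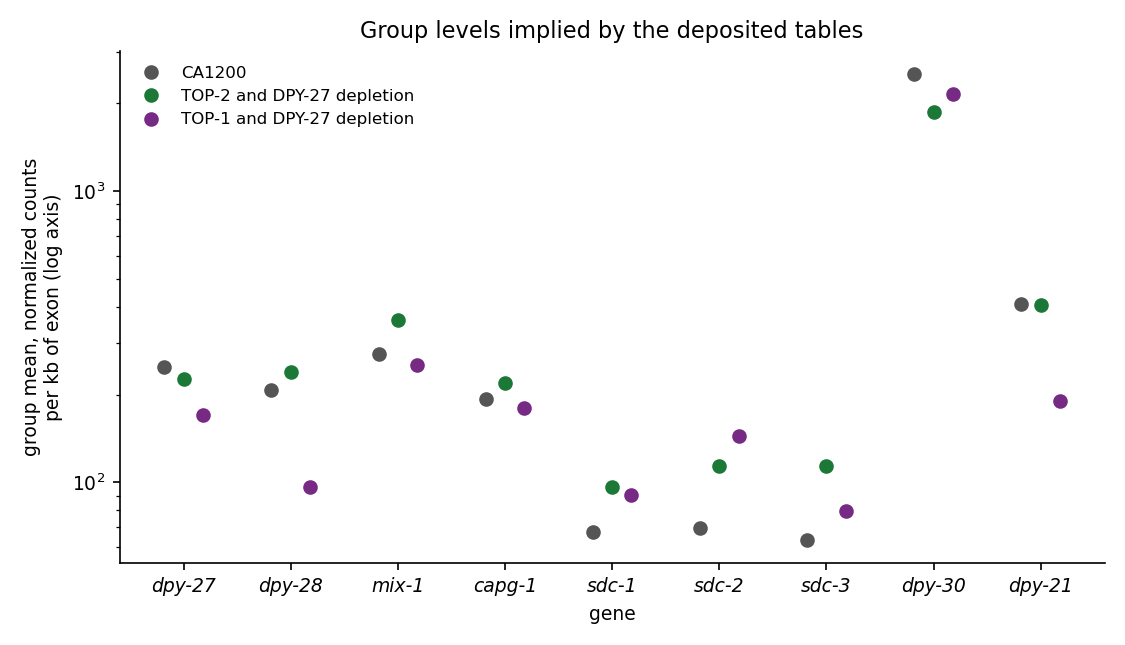
Group mean of each gene in normalized counts per kb of exon on a log axis, for CA1200 and both depletions, as implied by the deposited tables; there are no error bars because the tables give no value per library. dpy-30 lies far above the others, and in CA1200 the SDC genes lie between 63.5 and 69.7, below all condensin subunits.

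After depletion of TOP-2, none of the 9 genes passed the authors' test, against 21.5% of all genes tested. DESeq2's unadjusted p was under 0.05 for 1 of the 9, sdc-3, and for 31.6% of all genes tested. The log2 fold changes ran from -0.44 to 0.84 with a median of 0.22, where the median over all genes with a mean of at least 10 was -0.03. With SEs between 0.32 and 0.45, a log2 fold change had to reach 0.81 for dpy-30 and 1.14 for dpy-28 to be called, so smaller changes were not detectable at this precision.

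The transcript of the degron-tagged gene was measured first. dpy-27 (R13G10.1, chromosome III) encodes the SMC ATPase found only in condensin DC, and its level was 1314 normalized counts in CA1200, 1201 after TOP-2 depletion and 902 after TOP-1 depletion. The degron acts on protein, so these levels do not check whether DPY-27 was lost. In the authors' deposited tables dpy-27 had a log2 fold change of -0.13 with an SE of 0.41 (adjusted p 0.873 by DESeq2), written below as -0.13 ± 0.41, after TOP-2 depletion and -0.55 ± 0.37 (adjusted p 0.282) after TOP-1 depletion. The 95% intervals reach down to -0.92 and -1.28. The other tagged genes, top-2 and top-1, were at -0.17 ± 0.36 and -0.17 ± 0.31 in their own strain's comparison (adjusted p 0.798 and 0.745 in the authors' deposited tables by DESeq2).

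Subunits shared with the mitotic condensins stood at or slightly above the control after TOP-2 depletion. mix-1 (M106.1, chromosome II), the partner SMC ATPase, went from 1120 normalized counts in CA1200 to 1466, a log2 fold change of 0.39 ± 0.35 in the authors' deposited table (adjusted p 0.480 by DESeq2). capg-1 (F29D11.2, chromosome I) went from 738 to 840 normalized counts, or 0.19 ± 0.35 (adjusted p 0.772 in the authors' deposited table by DESeq2). dpy-28 (Y39A1B.3, chromosome III) went from 965 to 1117 normalized counts, or 0.22 ± 0.45 (adjusted p 0.794 in the authors' deposited table by DESeq2). Their 95% intervals all include 0, and the highest upper bound, for dpy-28, was 1.09. Both capg-1 and dpy-28 encode HEAT-repeat subunits.

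All 3 SDC genes had positive estimates after TOP-2 depletion, and none was called. sdc-3 (C25D7.3, chromosome V) went from 430 to 770 normalized counts, the highest estimate of the 9 at 0.84 ± 0.42 in the authors' deposited table (adjusted p 0.143 by DESeq2). sdc-2 (C35C5.1) went from 644 to 1048 normalized counts, or 0.70 ± 0.37 (adjusted p 0.176 in the authors' deposited table by DESeq2), and sdc-1 (F52E10.1) from 261 to 372, or 0.52 ± 0.39 (adjusted p 0.392). sdc-1 and sdc-2 lie on the X, and their estimates were -0.03 and 0.16 from the median of X genes. sdc-3 lies on an autosome and was 0.97 above the autosomal median, at the 82.4 percentile of autosomal genes. The partners were at or below the control. dpy-30 (ZK863.6, chromosome V) went from 1480 to 1093 normalized counts, or -0.44 ± 0.32 (adjusted p 0.360 in the authors' deposited table by DESeq2). dpy-21 (Y59A8B.1, chromosome V) was at 2312 and 2305, with a 95% interval of the log2 fold change from -0.75 to 0.75.

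**Figure D2:**
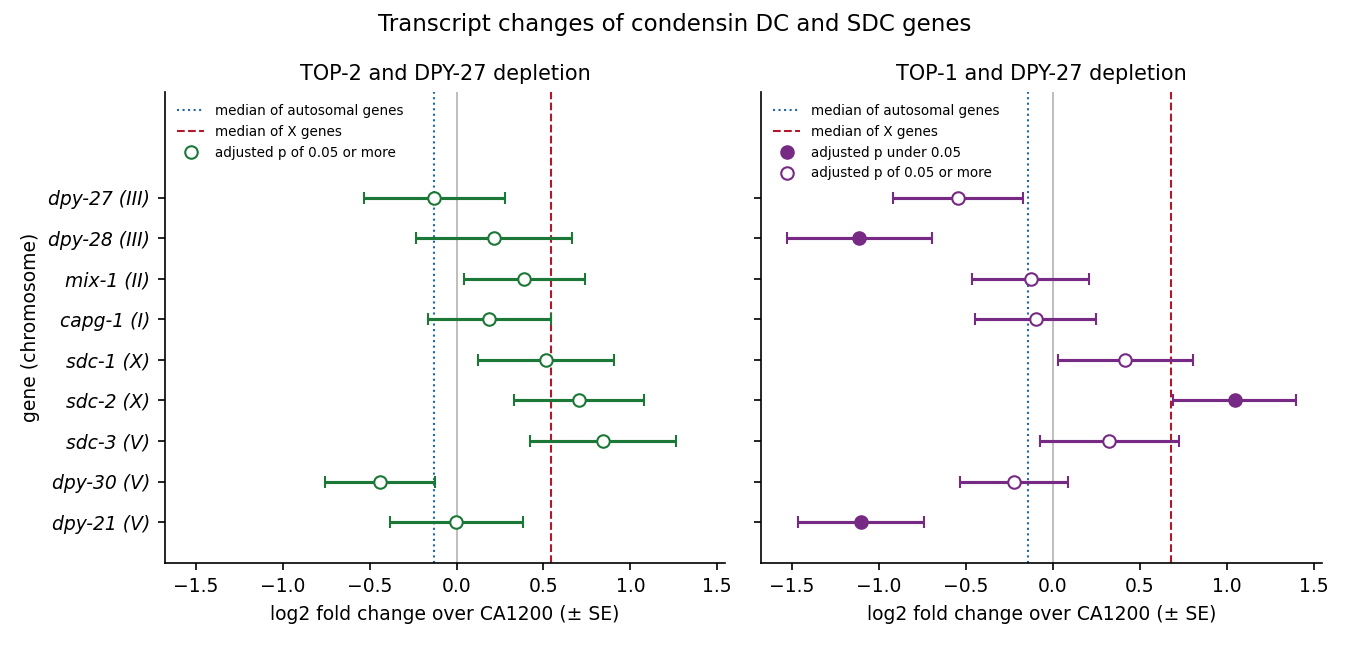
Log2 fold change over CA1200 of each gene in both depletions, with bars of 1 SE, filled points for an adjusted p under 0.05 and lines at the medians of autosomal and X genes. No point is filled after TOP-2 depletion, and dpy-28, dpy-21 (both lower) and sdc-2 (higher) are filled after TOP-1 depletion.

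After depletion of TOP-1, the transcripts of dpy-28 and dpy-21 fell and that of sdc-2 rose, and the other 6 genes did not pass the test. That is 3 of 9 genes called, against 29.9% of all genes tested, so the share called is near the background. The directions were 1 higher and 2 lower, against 17.1% and 12.8% of all genes. The median of the 9 log2 fold changes was -0.13, against -0.04 over all genes with a mean of at least 10.

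dpy-28 went from 965 normalized counts in CA1200 to 448 after TOP-1 depletion. Its log2 fold change was -1.11 ± 0.42 in the authors' deposited table (adjusted p 0.0296 by DESeq2), which is 0.462 of the control with a 95% interval from 0.262 to 0.817. The other HEAT-repeat gene, capg-1, was at 691 against 738 normalized counts, or -0.10 ± 0.35 (adjusted p 0.871 in the authors' deposited table by DESeq2). The SMC gene mix-1 was at 1027 against 1120, or -0.13 ± 0.34 (adjusted p 0.826 in the authors' deposited table by DESeq2). Within condensin DC the estimates thus spread from -1.11 to -0.10, with dpy-27 between, and only that of dpy-28 was called.

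dpy-21, the demethylase gene, went from 2312 to 1078 normalized counts after TOP-1 depletion. The authors' deposited table gives -1.10 ± 0.36 (adjusted p 0.0107 by DESeq2), or 0.466 of the control with a 95% interval from 0.285 to 0.761. dpy-21 was the second most abundant of the 9 per kb of exon in CA1200, at 408 normalized counts per kb, and came to 190 per kb, close to capg-1 and dpy-27. dpy-30 was at 1266 against 1480 normalized counts, or -0.22 ± 0.31 (adjusted p 0.641 in the authors' deposited table by DESeq2).

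sdc-2, the gene that starts X loading, went from 644 normalized counts in CA1200 to 1333 after TOP-1 depletion. The rise was 1.05 ± 0.35 on the log2 scale in the authors' deposited table (adjusted p 0.0136 by DESeq2), 2.07-fold with a 95% interval from 1.28 to 3.34. sdc-1 was at 349 against 261 normalized counts, or 0.42 ± 0.39 (adjusted p 0.457 in the authors' deposited table by DESeq2). sdc-3 was at 541 against 430, or 0.33 ± 0.40 (adjusted p 0.592 in the authors' deposited table by DESeq2). The estimates of all 3 SDC genes were thus positive in both depletions, which share the CA1200 libraries, and that of sdc-2 alone was called, after TOP-1 depletion.

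The median of X genes was above 0 in both depletions, and sdc-1 and sdc-2 lie on the X. Whether their estimates share a cause with the other X genes was not tested. After TOP-1 depletion sdc-2 lay 0.37 above the median of X genes, at the 65.1 percentile, and sdc-1 lay 0.26 below it, at the 36.7 percentile. Measured against the median of X genes instead of against 0, the estimate of sdc-2 was not called (adjusted p 0.549). dpy-28 and dpy-21 lay 0.97 and 0.96 below the autosomal median, and against that median dpy-21 was called (adjusted p 0.0371) while dpy-28 was not (0.0798). Against the median of their own chromosome class, 22.4% of all genes were called.

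The fold changes of genes also moved with gene span after TOP-1 depletion, and the members differ widely in span. By the gene models of Ensembl release 115, mix-1 spans 17.2 kb, dpy-28 13.9 kb, dpy-21 12.9 kb, sdc-2 10.7 kb and sdc-3 9.06 kb. sdc-1, dpy-27 and capg-1 span 6.77, 6.66 and 5.29 kb, and dpy-30 spans 0.867 kb. Introns make up 76.3% of the span of mix-1, 66.5% of dpy-28 and 56.1% of dpy-21, but 13.9% of sdc-2 and 25.2% of sdc-3. Protein-coding autosomal genes were sorted into deciles by span, a view chosen after the data were seen. In the decile of longest span, from 8.61 kb up, the median log2 fold change after TOP-1 depletion was -0.76 and 40.9% of genes tested were called lower. In the decile of shortest span the median was 0.06 and 7.61% were called lower. After TOP-2 depletion the medians of these deciles were -0.10 and -0.23.

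The longest decile of autosomal genes holds dpy-28, dpy-21, mix-1 and sdc-3, and these went apart after TOP-1 depletion. dpy-28 and dpy-21 lay 0.36 and 0.35 below the median of that decile and were not called against it (adjusted p 0.602 and 0.548). mix-1, the longest of the 9, lay 0.63 above it, with an adjusted p of 0.166. sdc-3 lay 1.08 above it and was called against it (adjusted p 0.0288), although its fold change over CA1200 was not. Against the median of their own class and decile, 27.2% of the genes so tested were called. On the X the longest decile, which holds sdc-2, had a median of 0.45, and sdc-2 lay 0.59 above it (adjusted p 0.226). Members in shorter deciles lay nearer to their medians, dpy-27 by -0.09, capg-1 by 0.13, sdc-1 by -0.03 and dpy-30 by -0.28.

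**Figure D3:**
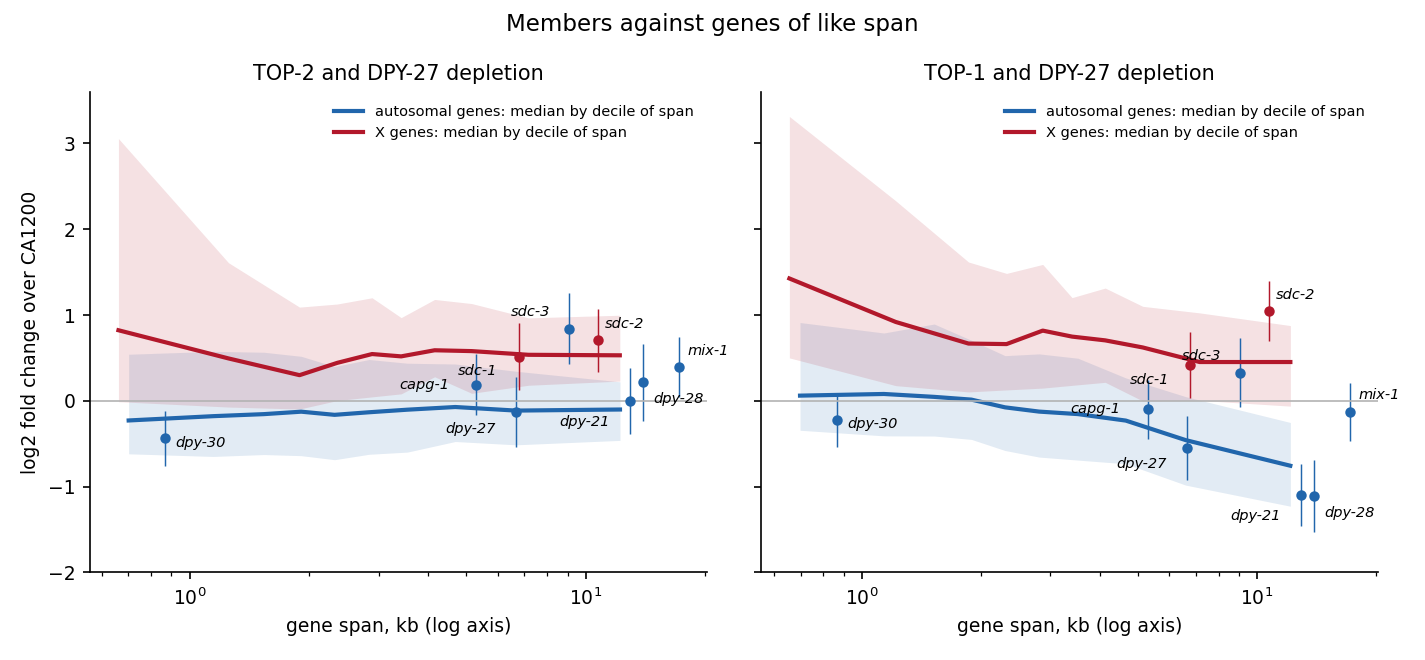
Log2 fold change over CA1200 against gene span in kb on a log axis, with lines for the median and shading for the interquartile range of autosomal (blue) and X (red) protein-coding genes in deciles of span; points are the members with bars of 1 SE. After TOP-1 depletion the autosomal line falls to -0.76 at the longest decile, with dpy-28 and dpy-21 below it and mix-1 and sdc-3 above it.

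The depletions were then compared with each other by subtracting the log2 fold change of TOP-1 depletion from that of TOP-2 depletion. DPY-27 was tagged in both strains and the common control cancels. What remains in this difference is the topoisomerase, the strain and any unequal loss of DPY-27, which is not known here. No member was called by the Wald test of this difference, with Benjamini-Hochberg adjustment over 13027 genes, of which 0.115% were called, 0.0691% higher and 0.0461% lower after TOP-2 depletion. The unadjusted Wald p was under 0.05 for 2 of 9 members, against 4.62% of all genes, and both were higher after TOP-2 depletion.

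dpy-28 had the largest estimate, 1.33 ± 0.61 (unadjusted Wald p 0.0300, adjusted p 0.961), with levels of 1117 and 448 normalized counts after TOP-2 and TOP-1 depletion. dpy-21 followed at 1.10 ± 0.53 (unadjusted Wald p 0.0364, adjusted p 1.00), with levels of 2305 and 1078. Their 95% intervals run from 0.13 to 2.53 and from 0.07 to 2.13. The SE treats the tables as independent and is too large because they share CA1200. With the control taken as 0.5 of each variance, the adjusted p was 0.0689 for dpy-28 and 0.0859 for dpy-21, where 2.64% of all genes were called, 1.85% higher and 0.791% lower. The other 7 differences lay between -0.34 for sdc-2 and 0.52 for sdc-3 and mix-1, with intervals that all include 0 and reach 1.65 on the high side (sdc-3) and -1.35 on the low side (sdc-2). The median difference of genes in the longest autosomal decile was 0.62, so the estimates of mix-1 and sdc-3 were near that of genes of like span, and those of dpy-28 and dpy-21 were above it by less than their 95% intervals.

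**Figure D4:**
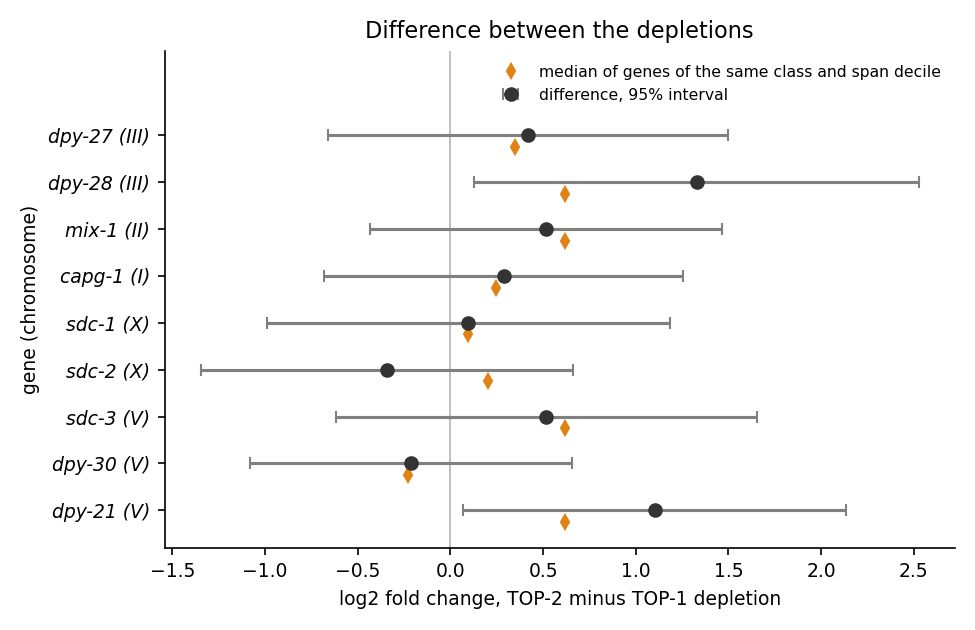
Difference of log2 fold changes, TOP-2 minus TOP-1 depletion, with 95% intervals from independent SEs; diamonds mark the median difference of genes of the same chromosome class and decile of span. The intervals of dpy-28 and dpy-21 lie above 0 and include their diamond at 0.62.

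Genes that work beside condensin DC were read from lists. The kleisin gene dpy-26 was at 0.25 ± 0.34 after TOP-2 depletion (adjusted p 0.665 in the authors' deposited table by DESeq2) and at -0.10 ± 0.33 after TOP-1 depletion (adjusted p 0.860). Of 4 subunits of condensin I and II that condensin DC lacks, kle-2 did not pass after TOP-2 depletion and the list median was 1.13. The other 3 rose, where 14.1% of all genes tested did. They were hcp-6 at 1.33 ± 0.40, capg-2 at 1.15 ± 0.36 and smc-4, the SMC ATPase that takes the place of DPY-27 in condensin I, at 1.12 ± 0.42 (adjusted p 0.00592, 0.0102 and 0.0383 in the authors' deposited table by DESeq2). With TOP-1 depleted none of these 4 passed, against 29.9% of all genes tested, with a median of 0.67. The difference between the depletions was not called for any of the 4.

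Markers of dividing cells and of other cell types were read in the same comparisons. Of 20 genes of DNA replication and mitosis 11 rose after TOP-2 depletion, where 14.1% of all genes tested rose, and 2 after TOP-1 depletion, where 17.1% did. None of the 20 fell, and the medians were 1.00 and 0.57, with no difference between the depletions called for any of them. Those of smallest p were the replication licensing genes mcm-3, mcm-4, mcm-7 and orc-1, the ribonucleotide reductase gene rnr-1 and the kinase gene plk-1, with log2 fold changes between 0.99 (rnr-1) and 1.42 (orc-1) after TOP-2 depletion in the authors' deposited table. Of these, mcm-7 and orc-1 also rose after TOP-1 depletion, by 0.95 and 1.23 on the log2 scale in the authors' deposited table. The summed level of all 20 genes was 6952 normalized counts in CA1200, 13064 after TOP-2 depletion and 9961 after TOP-1 depletion. Of 18 germline markers 15 and 14 rose and none fell, with medians of 4.09 and 3.30 and summed levels of 2067, 8192 and 5540 normalized counts in the same order. The lowest of them, nos-2, had means of 1.09 and 0.865 normalized counts in the authors' deposited tables. Of 8 pharyngeal muscle markers 7 rose in each depletion, with medians of 5.74 and 5.29 and summed levels of 1291, 50512 and 34689. Of 5 body wall muscle markers measured 0 and 1 rose, with medians of 0.23 and 0.23. Of 8 neuron markers 2 and 3 fell, against 7.47% and 12.8% of all genes tested, with medians of -0.35 and -0.41. The 3 that fell after TOP-1 depletion span 9.18 to 31.3 kb and include the 2 that fell after TOP-2 depletion. In the longest autosomal decile of span 40.9% of genes tested were called lower after TOP-1 depletion and 6.27% after TOP-2 depletion. Of 7 intestine markers 0 and 1 rose, with medians of 0.23 and 0.41. The part of any of these in the values of the 9 genes was not tested.

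Upstream of the SDC genes, the genes that count X chromosomes and autosomes were mixed. Of 8 genes listed 6 were found in the tables, and 4 had a mean of at least 10. The symbols sex-2 and sea-3 matched no gene model, so whether those genes are in the tables is unknown. None of the 4 with a mean of at least 10 passed after TOP-2 depletion, against 21.5% of all genes tested. After TOP-1 depletion 1 rose and 1 fell, against 17.1% and 12.8% of all genes tested. The difference between the depletions was not called for any of the 4. ceh-39, a homeobox X signal element, went from 67.9 to 147 normalized counts, or 1.11 ± 0.44 (adjusted p 0.0401 in the authors' deposited table by DESeq2). The median of X genes in that comparison was 0.68. sea-2, an autosomal signal element that spans 21.8 kb, went from 4430 to 1778, or -1.32 ± 0.33 (adjusted p 0.000538 in the authors' deposited table by DESeq2). In the longest autosomal decile of span 40.9% of genes tested were called lower there. xol-1, the switch gene that blocks sdc-2 in males, had means of 2.10 and 0.706 normalized counts in the authors' deposited tables, too low for an adjusted p. Downstream, her-1 rose after TOP-2 depletion, from 7.11 to 40.2 normalized counts, or 2.50 ± 0.77 in the authors' deposited table (adjusted p 0.00837 by DESeq2). After TOP-1 depletion it was at 17.4, or 1.30 ± 1.05 (adjusted p 0.380 in the authors' deposited table by DESeq2), and the difference between the depletions, 1.20 ± 1.30, was not called (adjusted p 1.00).

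Genes of other chromatin proteins on the lists did not pass the test. The partners of DPY-30 are the histone H3 methyltransferases set-2 and set-16 and the non-catalytic subunits wdr-5.1, ash-2, rbbp-5 and cfp-1. None of these 6 was called in either depletion, against 21.5% and 29.9% of all genes tested, with medians of 0.04 and -0.29. set-1 and set-4 encode methyltransferases of the histone H4 residue that DPY-21 demethylates, met-2 and set-25 encode histone H3 methyltransferases, and cec-4 encodes a chromodomain protein that anchors chromatin at the nuclear envelope. None of these 5 was called in either depletion, against the same shares of all genes, with medians of -0.07 and -0.19. dpy-30 itself was at -0.44 and -0.22 in the authors' deposited tables.

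**Figure D5:**
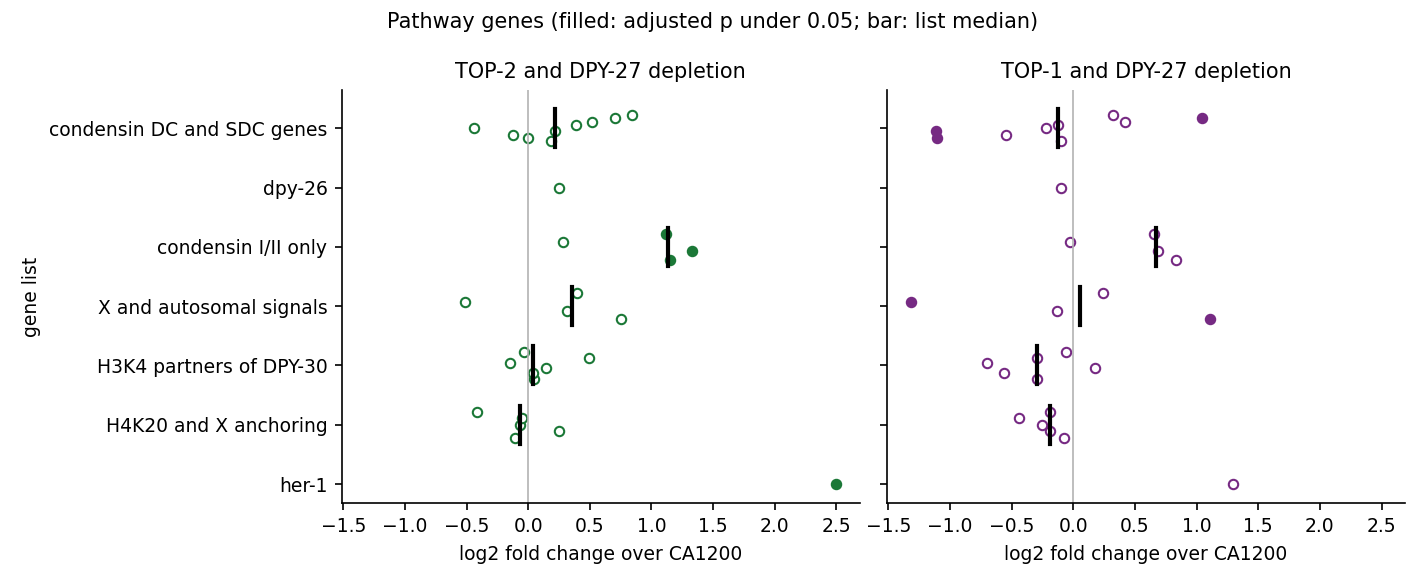
Log2 fold change over CA1200 of the members and of the lists of pathway genes with a mean of at least 10, filled where the adjusted p is under 0.05, with bars at list medians. After TOP-2 depletion the filled points are smc-4, capg-2, hcp-6 and her-1; after TOP-1 depletion they are dpy-28, dpy-21, sdc-2, ceh-39 and sea-2.

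The counts of some members could hold reads of other genes. The mix-1 model overlaps 2 protein-coding genes, VM106R.1 and M106.8, over 1537 bases of its span, and the dpy-30 model shares 113 bases with rnp-1. How the authors' counting treated strand and such overlaps is unknown here. The other 7 members overlap no protein-coding gene. With 2 fold changes per gene and a common control, no measure of likeness between genes was taken.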

How the data were processed

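Per the labels' protocols, poly(A) RNA was made into stranded dUTP libraries. The authors deposited 2 DESeq2 result tables. The mean normalized count is a signal that the authors averaged over the libraries of a comparison. The SE is likewise the authors' own. Log2 fold changes, as deposited, are of depletion over CA1200. The score is the deposited Wald statistic. Each raw or adjusted p-value of a depletion over CA1200 is as the authors deposited it, per the file headers. Tools named, per the submitters' processing notes, are DESeq2 1.30.0, HTSeq 0.13.5, HISAT2 2.2.1, Cufflinks 2.2.1 and CASAVA 1.8. The genome build and the reads per library are not given in the sources used here. No coordinates or depths are therefore printed. The mean counts of members run from 296 to 2306, and the SE gives the precision.

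From these values, group levels (equal arms, the TOP-1 table scaled by 1.03), differences, class medians (mean of at least 10) and Benjamini-Hochberg values were computed in Python 3.11.15 with pandas 2.3.3 and scipy 1.17.1, and tested on simulated data. SEs of levels take each arm as 0.5 of the deposited variance. Ensembl release 115 gave symbols, spans and exonic lengths, and 98.13% of names matched. Members and lists were chosen with earlier results of these data known. Every member is named, and of the other lists the members called in either table, up to 6 of smallest p. Cell type and stage markers are given as counts. Others named there are given as list contents, levels or overlaps and were chosen after their values were seen.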

Additional observations from a re-analysis of the deposited data

How the results depend on the processing

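No paired analysis was possible because the tables hold no value per sample, and for the same reason no replicate could be left out. Centring on autosomal genes subtracts medians of -0.13 and -0.14 from all values. After TOP-2 depletion 0 members were called under every alternative run, where 17.2% to 26.3% of all genes were. After TOP-1 depletion 3 of 9 were called at an adjusted p under 0.1 (36.1% of all genes) and with Benjamini-Hochberg adjustment over every gene (25.1%) or over those with means of 10 or more (32.6%), and 2 against the autosomal median (24.7%), where dpy-28 missed (adjusted p 0.0740). Against the median of the same chromosome class 1 was called (dpy-21, 22.4% of all genes), and against that of the same class and span decile, added after seeing the data, 1 (sdc-3, 27.2%). The causes were not tested. Signs that changed belonged to values not called. Against the autosomal median dpy-27 came to 0.00165 and dpy-21 to 0.13 (TOP-2), and mix-1 to 0.0144 and capg-1 to 0.0422 (TOP-1). Against the class median these 4 were the same, and sdc-1 came to -0.0287 (TOP-2) and -0.26 (TOP-1). Against class and span decile sdc-1 came to -0.0214 and dpy-21 to 0.10 (TOP-2), and mix-1 to 0.63, capg-1 to 0.13 and sdc-1 to -0.0346 (TOP-1).

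For the difference between the depletions no member was called under any alternative run. Over all genes 15 were called, 344 with the control taken as 0.5 of each variance, and 115 with that and the span medians subtracted, where mix-1 and sdc-3 came to -0.10 and dpy-30 to 0.0154. Highest over lowest member per kb was 39.7, and 60.1 per kb of coding sequence, with no rank changed. Assuming 2 in 5 or 1 in 3 depleted libraries raised the spread of the control level to 0.0539 and 0.0918. In the TOP-1 comparison 4 members lay above their class median, 2 with medians over every gene and 5 with medians over genes whose mean was 100 or more. In the TOP-2 comparison these counts were 7, 6 and 8. With genes under a mean of 10 included, the median of X and autosomal signals became -0.41 (TOP-1), and that of adult markers 0.23 (TOP-2) and 1.72 (TOP-1). Adjusted p-values of sdc-2, dpy-28 and dpy-21 after TOP-1 depletion ran from 0.00498 to 0.549, 0.0273 to 0.602 and 0.00973 to 0.548 over their alternatives. Library depth is unknown, so no limit from depth can be given.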
